A study of Mus musculus with 2 samples.

Results

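The enzymes of glycolysis, the pentose phosphate pathway and the citrate cycle were followed as a set of 46 genes in sorted cells of the mouse pylorus, the part of the stomach that opens into the intestine. Members were the genes whose symbols in the array files match a list of enzymes covering glucose uptake, glycolysis, lactate dehydrogenase, pyruvate dehydrogenase, the citrate cycle, the pentose phosphate pathway and gluconeogenesis. Of the 46 genes, among 27827 gene names on the array, 45 had at least 1 probe and 78 probes were found in all. Pck1 was the member without a probe. A member counted as measured if its brighter population stood well above background in both hybridisations, which held for 41 members and for 7836 genes in all.

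Cells came from the pylorus of 20 mice (20 stomachs), pooled, of the knock-in strain Lgr5-EGFP-ires-CreERT2. In this strain green fluorescent protein (GFP) and a tamoxifen-dependent Cre recombinase (CreERT2) are made from the Lgr5 locus, so that GFP brightness follows Lgr5, a receptor of the Wnt pathway that marks stem cells in several epithelia. Flow cytometry gave a population bright in GFP (GFPhigh) and a population dim in GFP (GFPlow), and both carry the same knock-in allele. The age and sex of the mice and any treatment with tamoxifen are not given in the sources used here. Cells without GFP were not among the samples, so no value below refers to the rest of the gland. The RNAs competed on 2 mouse arrays made by Agilent: on array 1 GFPhigh carried the dye Cy3 and GFPlow Cy5, and array 2 had the dyes exchanged.

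There was 1 RNA sample per population, and the 2 arrays were repeat measurements of it with opposite dyes. No test between the populations was possible, no p-value is given, and a mean ± SD over the arrays (n = 2) holds technical error only. Ratios are on the log2 scale, GFPhigh over GFPlow, so that a negative value is higher in GFPlow and a value of -1 is 2-fold. A gene was called where it was at least 2-fold apart in the same direction on each array. In pooled cells, fewer cells of a type and less RNA per cell cannot be told apart. Lgr5 itself had ratios of 2.33 and 2.24, higher in GFPhigh on both arrays as the sort requires, although with median centring in place of loess the mean was 1.80 and the call was lost. Between 18.7% and 31.7% of the gene spots of a channel stood well above background, with the lowest share in the GFPhigh channel of array 2, which carried Cy5. Of the 41 measured members, 36 were well above background in all 4 channels, and in the other 5, Pfkp, Aldoc, Ogdh, Suclg2 and Fbp2, GFPhigh was above background on array 1 alone. The number of arrays limits the precision of every value.

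Glycolysis splits glucose into pyruvate in the cytosol and yields ATP and NADH. Pyruvate is reduced to lactate or enters mitochondria, where pyruvate dehydrogenase turns it into acetyl-CoA for oxidation in the citrate cycle. The pentose phosphate pathway branches off at glucose 6-phosphate: its oxidative arm makes NADPH, used in lipid synthesis and against oxidants, and its reversible arm makes ribose 5-phosphate, the sugar of nucleotides. In stomach epithelium these pathways serve cells as unlike as dividing progenitors, mucus-secreting cells and acid-secreting parietal cells, the last being rich in mitochondria.

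The lowest ratios of the set were found in the pentose phosphate pathway, and the array probes behind them are printed here because these values rest on 1 or a few short sequences. Coordinates are those of the mouse build mm9 that the files use. The first 30 of the 60 bases of each probe are shown, 5′ to 3′ as the files list them. Rpia had 1 probe, and Tkt 1 measured probe of 3, at chr6:70715710-70715770 (minus strand) and chr14:31386641-31386700 (plus strand). The 2 Pgd probes lie at chr4:148524293-148524352 and chr4:148524812-148524871 (minus strand), and the probe of G6pdx at chrX:71654949-71655008 (minus strand). Exons are not named, as gene models of mm9 were not used here.
Rpia: gaagctgtcacttgtgctgttcgaaggttg
Pgd, first probe: aacgatctgcactgagttcactattgcaaa
Pgd, second probe: ctcaacgggattactttggggctcacacct
Tkt: cggtattgacaaggacgccattgtgcaagc
G6pdx: caccagatggaagagacctcatgctgccta

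Across the set, most enzymes had somewhat lower signal in GFPhigh than in GFPlow. The median ratio of the 41 measured members was -0.43 (-0.30 on array 1 and -0.50 on array 2), beside -0.06 for all measured genes. Of the members, 27 (65.9%) had ratios below 0 on each array, against 36.6% of all measured genes. Ratios were above 0 on each array for 4 members, Hk2, Pfkl, Aldoa and Ldhb, against 28.1% of all genes. The other 10 members had opposite signs on the arrays, against 35.3% of all genes. The 2-fold call was met by 1 member higher in GFPlow, Rpia, where 2.69% of all measured genes met it, and by 0 members higher in GFPhigh, where 1.76% did. At 1.5-fold on each array there were 6 members higher in GFPlow, Hk1, Aldoc, Pgam1, Pgd, Tkt and Rpia, against 7.5% of all genes, and 0 higher in GFPhigh, against 5.59%. On array 2 alone, 5 members passed 2-fold towards GFPlow (Aldoc, Tpi1, Gapdh, Pgd and Rpia), against 5.47% of genes, and Ldhb passed it towards GFPhigh, against 4.07%. On array 1 alone, 3 passed it towards GFPlow (G6pdx, Tkt and Rpia), against 4.23%. Over the 36 members above background in all 4 channels, which no dim population let through, 24 (66.7%) had ratios below 0 on each array, against 28.6% of genes under the same filter. Proliferation genes were also lower in GFPhigh (median -1.83 of 9 measured), as were surface mucous cell markers (median -2.77 of 4), and their part in the enzyme ratios was not tested. Most of the enzyme differences were small: 12 members had a mean ratio within 0.25 of 0, and in 13 the SD of the arrays was at least as large as the mean.

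**Figure D1:**
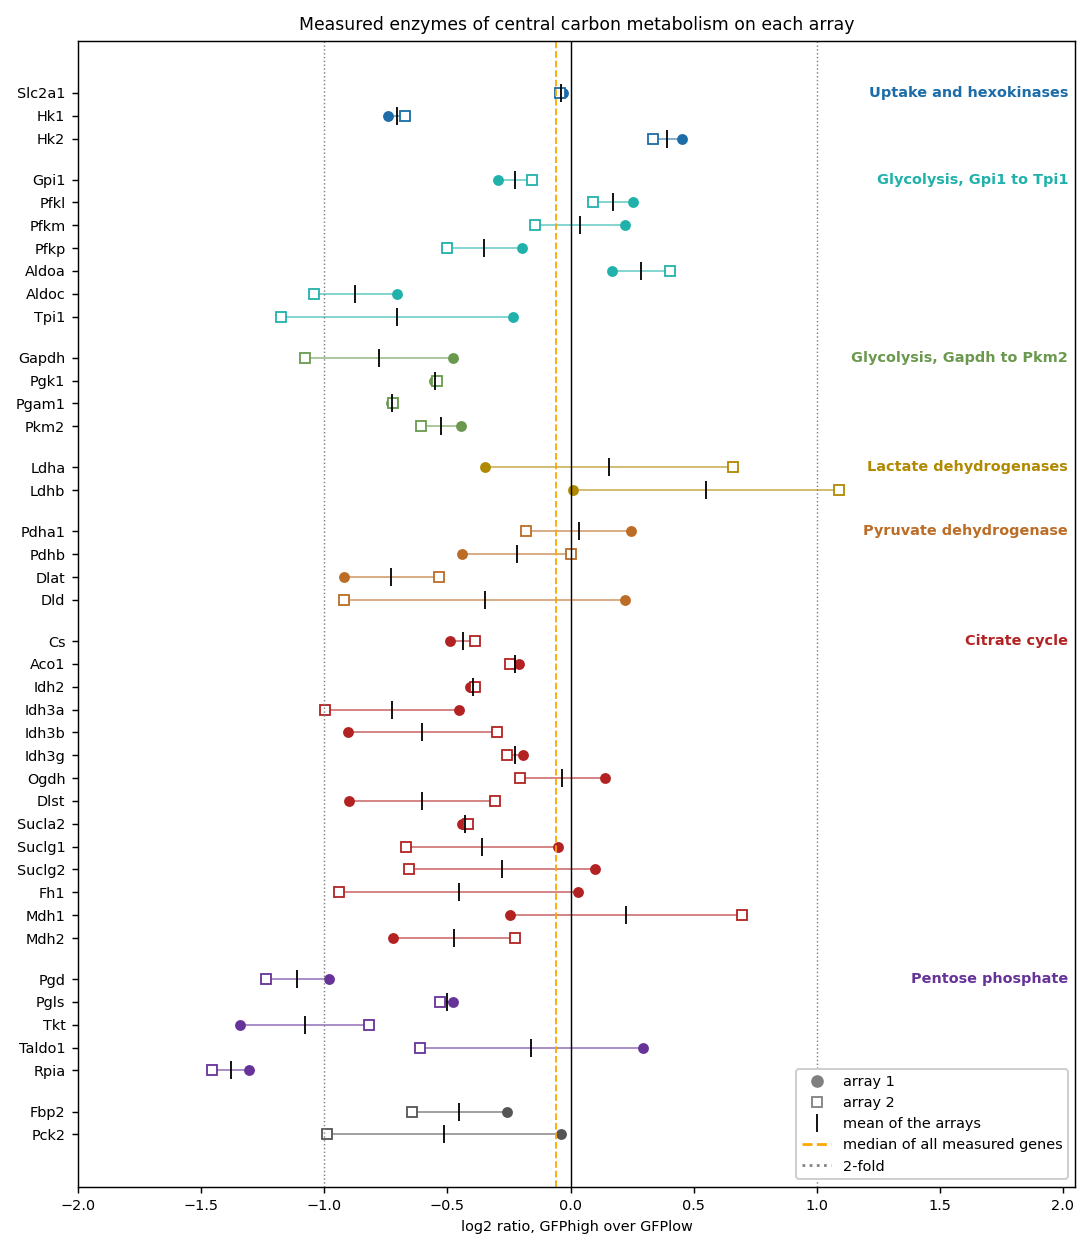
Log2 ratio of GFPhigh over GFPlow (horizontal axis) of each of the 41 measured members, in order of pathway step, with filled circles for array 1, open squares for array 2 and a tick at their mean. Of the 41 members, 27 lie left of 0 on both arrays, and Rpia is the member left of the 2-fold line on both.

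The spread between the arrays was much the same for the members as for all genes. Differences between the arrays had an SD of 0.543 for the members and 0.571 for all genes. Pearson's r between the arrays was 0.405 and Spearman's rho 0.406 over 41 members, against 0.597 and 0.473 over 7836 genes. These are descriptions across genes that share the same 2 RNA samples. The members spanned means from -1.38 (Rpia) to 0.55 (Ldhb).

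**Figure D2:**
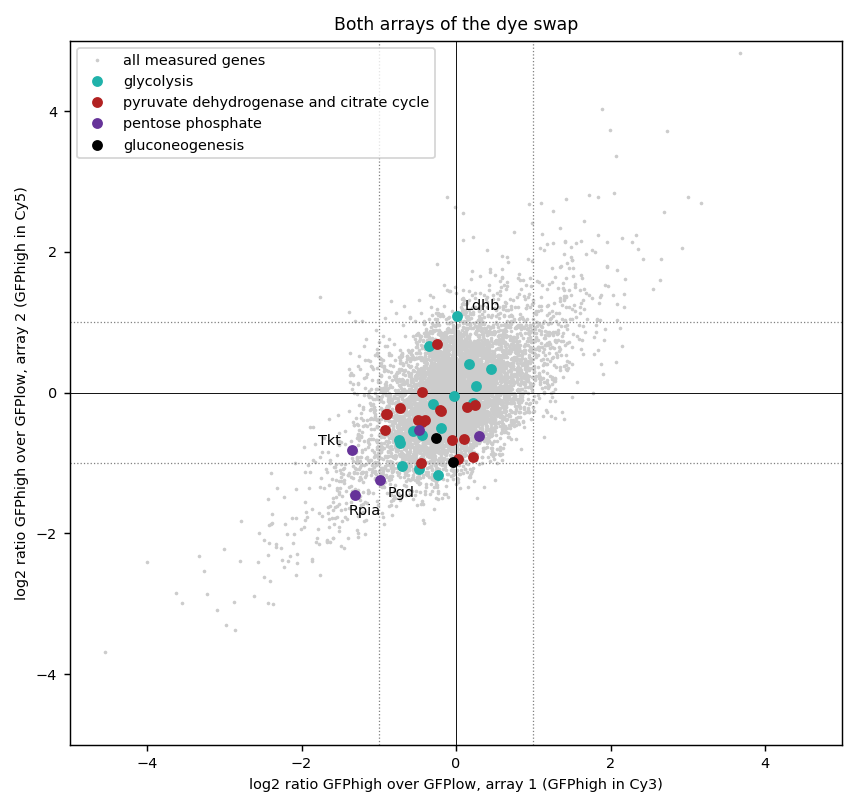
Log2 ratio of GFPhigh over GFPlow on array 1 (horizontal axis) and array 2 (vertical axis) for all 7836 measured genes (gray) and the 41 measured members (coloured by pathway), with dotted lines at 2-fold. Rpia, Pgd and Tkt lie at the lower left of the members, and Ldhb is high on array 2 alone.

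Of the enzymes of the pentose phosphate pathway, 5 of 6 were measured, and all 5 had mean ratios below 0. Their median was -1.08, with -0.98 on array 1 and -0.82 on array 2, the lowest of the pathway groups, beside -0.38 for the 36 measured members outside the pathway. Ratios were below 0 on each array in 4 of them, and 3 passed 1.5-fold on each array. All 5 were above background in all 4 channels. Rpia, ribose 5-phosphate isomerase, makes ribose 5-phosphate in the reversible arm. Its log2 intensity was 9.06 in GFPhigh and 10.37 in GFPlow on array 1, and 9.00 in GFPhigh and 10.46 in GFPlow on array 2. The populations did not overlap, and GFPlow was higher by a like amount with either dye. The ratio of Rpia was -1.38 ± 0.11 (SD, 2 arrays), 2.60-fold higher in GFPlow, and 1.77% of measured genes, Rpia included, had a ratio as low or lower. With median centring in place of loess it was -0.99 on array 1 and -3.07 on array 2, and the call was lost by that margin on array 1.

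Pgd encodes 6-phosphogluconate dehydrogenase, the second NADPH-producing step of the oxidative arm. On array 1 its log2 intensity was 8.47 in GFPhigh and 9.46 in GFPlow, and on array 2 it was 8.50 and 9.74. GFPlow was again the higher population in each hybridisation. The mean ratio was -1.11 ± 0.18, or 2.16-fold, and missed the 2-fold call because array 1 gave -0.98. The second Pgd probe, which lies apart from the first in the same gene, gave -1.12 and -0.95, a mean of -1.04. Tkt, transketolase, links the pathway back to glycolysis, and its log2 intensities were 12.55 in GFPhigh and 13.89 in GFPlow on array 1, and 12.83 and 13.65 on array 2. GFPhigh was lower on both arrays, with a ratio past 2-fold on array 1 (-1.34) and short of it on array 2 (-0.82). The mean was -1.08 ± 0.37, or 2.11-fold. Of all measured genes, 3.14% had a ratio as low as that of Pgd or lower, and 3.42% one as low as that of Tkt or lower, each gene itself included.

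G6pdx, glucose 6-phosphate dehydrogenase, is the entry and rate-limiting step of the oxidative arm. Its only probe was set aside because the spot was marked as non-uniform on array 2, so it is not among the 41. The ratio on array 1 was -1.09. With marked spots kept, a choice made after the data were seen, the ratio on array 2 was -0.75 and the mean -0.92 ± 0.24. The log2 intensities were then 9.06 in GFPhigh and 10.15 in GFPlow on array 1, and 8.77 and 9.52 on array 2, so that GFPlow was the higher on both. The remaining enzymes of the pathway differed less. Pgls, the lactonase between G6pdx and Pgd, had ratios of -0.48 and -0.53, a mean of -0.50 ± 0.04. Taldo1, transaldolase, had ratios of 0.29 and -0.61, so its direction depended on the array.

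**Figure D3:**
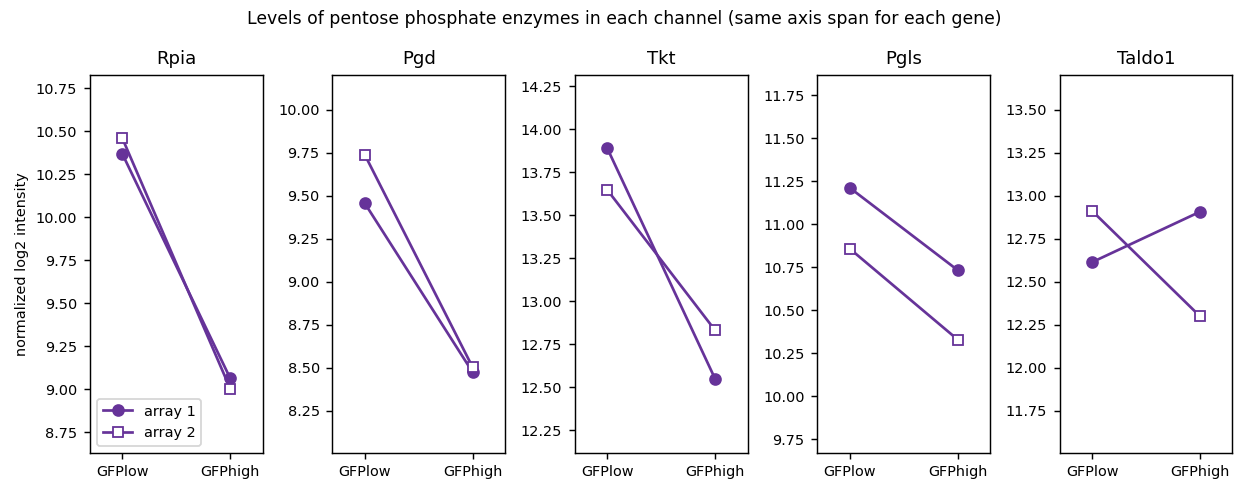
Normalized log2 intensity (vertical axes, the same span for each gene) of 5 pentose phosphate enzymes in GFPlow and GFPhigh, with lines joining the channels of array 1 (filled circles) and array 2 (open squares). The lines of Rpia, Pgd, Tkt and Pgls slope down towards GFPhigh on both arrays, and those of Taldo1 cross.

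Because Rpia, Pgd, Tkt and G6pdx all had lower signal in GFPhigh, the 250 bases before their annotated starts are given from RefSeq (GRCm38.p6), each in the direction of transcription. The windows are chr6:70792176-70792425 (Rpia, minus strand), chr4:149166706-149166955 (Pgd, minus strand, the outer of 2 annotated starts), chr14:30548881-30549130 (Tkt, plus strand) and chrX:74428881-74429130 (G6pdx, minus strand). Searched on both strands were the E-box (CACGTG), the core of the hypoxia response element (ACGTG), the TATA box (letters TATAAA) and the core of the antioxidant response element (TGACNNNGC). Capitals mark the single match among these windows, the reverse complement of the antioxidant core in G6pdx, which begins 57 bases before the start.
Rpia: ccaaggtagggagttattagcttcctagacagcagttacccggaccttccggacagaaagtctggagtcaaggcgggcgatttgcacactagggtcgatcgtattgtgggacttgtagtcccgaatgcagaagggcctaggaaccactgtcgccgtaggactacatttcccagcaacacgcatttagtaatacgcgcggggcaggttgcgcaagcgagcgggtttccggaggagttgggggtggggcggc
Pgd: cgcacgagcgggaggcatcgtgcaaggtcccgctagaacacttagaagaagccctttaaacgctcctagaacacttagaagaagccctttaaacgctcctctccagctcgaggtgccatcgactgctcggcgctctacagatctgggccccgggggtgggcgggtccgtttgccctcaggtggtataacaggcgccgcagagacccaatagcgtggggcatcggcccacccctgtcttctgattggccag
Tkt: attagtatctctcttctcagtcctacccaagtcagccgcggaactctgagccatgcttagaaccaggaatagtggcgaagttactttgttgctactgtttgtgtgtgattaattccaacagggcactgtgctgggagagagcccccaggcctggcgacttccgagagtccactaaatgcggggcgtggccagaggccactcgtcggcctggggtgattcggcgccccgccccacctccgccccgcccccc
G6pdx: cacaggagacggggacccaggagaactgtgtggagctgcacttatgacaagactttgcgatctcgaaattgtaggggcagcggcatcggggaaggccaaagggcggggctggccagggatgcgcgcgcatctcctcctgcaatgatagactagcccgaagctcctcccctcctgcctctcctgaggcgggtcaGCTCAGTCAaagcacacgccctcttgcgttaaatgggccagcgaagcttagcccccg

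Over the set, 45 genes matched the RefSeq promoter table, with 63 windows. The antioxidant core lay in 11.1% of these windows and in 10.2% of the 32851 windows of all genes. The hypoxia core lay in 31.7% against 16.6%, including windows of Pgk1, Pgam1, Ldha, Hk2, Aldoa and Slc2a1. The E-box, whose letters contain the hypoxia core, lay in 9.52% against 6.02%. The GC box GGGCGG, a motif of promoters without a TATA box, lay in 58.7% against 32.7%, and in windows of all 4 genes printed above. The TATA box was in 0 of 63 windows, against 12.4% of all. These are counts of letters in a window and no measure of binding.

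At glucose entry the members went in different directions. Slc2a1, the glucose transporter GLUT1, had ratios of -0.03 and -0.04. Hexokinases trap glucose as glucose 6-phosphate, and the housekeeping form Hk1 and the inducible form Hk2 had unlike ratios. For Hk1 the log2 intensity was 9.86 in GFPhigh and 10.60 in GFPlow on array 1, and 9.92 and 10.59 on array 2. Hk1 was thus higher in GFPlow on both arrays, with a ratio of -0.71 ± 0.05, or 1.63-fold. Of its 6 probes, 1 was measured. Hk2 was higher in GFPhigh on both arrays, at 9.12 against 8.67 and at 8.90 against 8.57 in log2 intensity, with a ratio of 0.39 ± 0.08. The ratio of Hk2 exceeded that of Hk1 by 1.19 on array 1 and 1.01 on array 2. That gap stayed between 1.00 and 1.29 in the mean under every alternative processing run, but several of these runs could not change it. Spike-in centring cancels in a difference of 2 genes. The filters, the probe rule and keeping outlier spots left the same probe for each gene. The sign of Hk2 itself did not hold: it was -0.15 with median centring, and -0.19 and -0.39 with centring on spike-in probes.

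Over all 16 measured members of glucose uptake, glycolysis and lactate formation the median was -0.29, and -0.13 over the 14 above background in all 4 channels. In upper glycolysis, the steps from glucose 6-phosphate to the triose phosphates, 7 members had a median of -0.23 and both directions were present. Gpi1, the isomerase, had a ratio of -0.23 ± 0.10. Phosphofructokinase commits the sugar to glycolysis, and its subunits had ratios of 0.17 ± 0.12 (Pfkl), 0.04 ± 0.26 (Pfkm) and -0.35 ± 0.21 (Pfkp). The arrays gave Pfkm opposite signs. Among the aldolases, which split fructose 1,6-bisphosphate, Aldoa had ratios of 0.17 and 0.40. A second Aldoa probe had the opposite sign on array 1, at -0.16. Its spot on array 2 was marked as an outlier, and gave 1.07 if kept. Aldoc had log2 intensities of 7.27 in GFPhigh and 7.98 in GFPlow on array 1, and 7.16 and 8.20 on array 2, where GFPhigh was not well above background. GFPlow was the higher on both arrays, with a mean ratio of -0.87 ± 0.24, or 1.83-fold. The difference between Aldoa and Aldoc was 1.16 as processed here, 0.49 with median centring and 2.82 with the scanner software's signals, so its size was poorly determined.

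The part of glycolysis from Tpi1 to Pkm2 carries the triose phosphates to pyruvate. All 5 measured members of 6 had ratios below 0 on each array, and their median was -0.71. Tpi1 is counted among the upper glycolysis members above as well. Without Tpi1, all 4 measured members had ratios below 0 on each array, with a median of -0.64. Of all measured genes, 36.6% had ratios below 0 on each array. Tpi1, triose phosphate isomerase, had log2 intensities of 11.38 in GFPhigh and 11.61 in GFPlow on array 1, and 10.76 and 11.93 on array 2. The ratio, -0.71 ± 0.67, thus came mainly from array 2. Gapdh, which makes the first NADH of the pathway, was at 10.36 and 10.84 on array 1 and at 10.11 and 11.19 on array 2, for GFPhigh and GFPlow in turn. GFPlow was higher on both arrays, with a mean ratio of -0.78 ± 0.42, or 1.72-fold, and a second Gapdh probe gave -0.80. Gapdh is often used to scale other genes, and has many pseudogene copies in the mouse genome. Binding of their transcripts to these probes was not tested.

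Pgam1, phosphoglycerate mutase, was at 11.14 in GFPhigh and 11.87 in GFPlow on array 1, and at 11.02 and 11.74 on array 2. Its ratio of -0.73 ± 0.00 differed little between the dyes. Pgk1, the first ATP-producing enzyme, had a ratio of -0.55 ± 0.01, with the same mean of -0.55 from a second probe. Pkm2, the symbol in the files for the muscle-type pyruvate kinase gene, had a ratio of -0.53 ± 0.11, and -0.30 from a second probe. Eno1, enolase, was not well above background in either population on array 1, and no ratio is given for it.

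Lactate dehydrogenase interconverts pyruvate and lactate, and neither of its subunits was apart in the same way on both arrays. Ldhb had log2 intensities of 10.84 in GFPhigh and 10.83 in GFPlow on array 1, and 11.33 and 10.23 on array 2. The populations were level on array 1 and apart on array 2 alone, giving a mean ratio of 0.55 ± 0.77, the highest of the set. Ldha had ratios of -0.35 and 0.66, and its second probe a mean of -0.03. In both genes the ratio was higher on array 2, where GFPhigh was in Cy5.

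**Figure D4:**
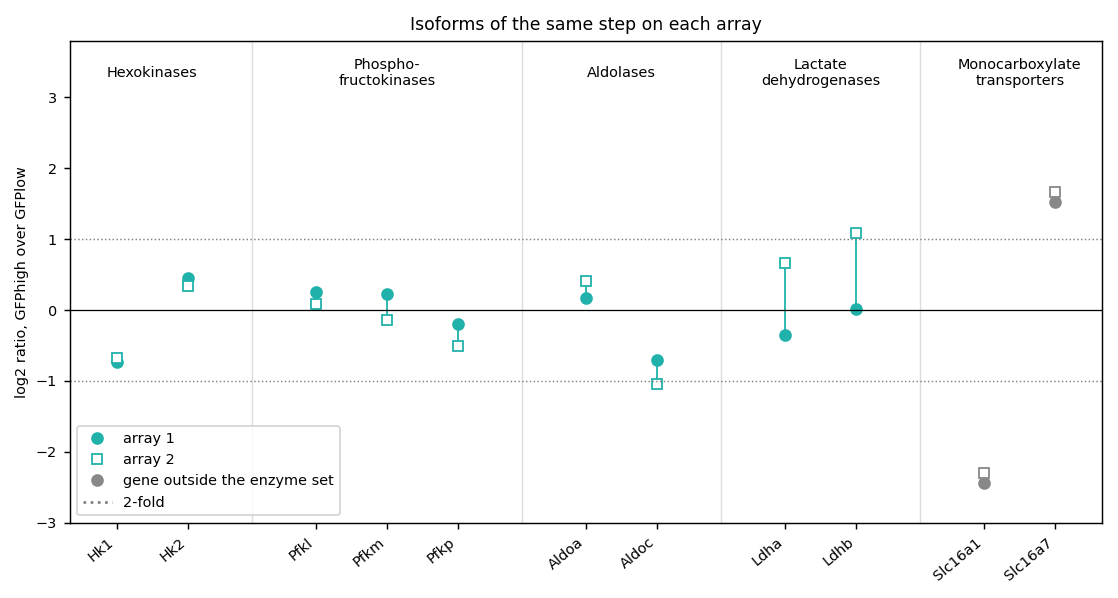
Log2 ratio of GFPhigh over GFPlow (vertical axis) of isoforms that share a step, on array 1 (filled circles) and array 2 (open squares), with members in green and 2 related genes outside the set in gray. Hk1 and Hk2 lie on opposite sides of 0 on both arrays, as do Slc16a1 and Slc16a7.

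Pyruvate dehydrogenase and the citrate cycle were represented by 18 measured members of 19, with a median ratio of -0.38, or -0.33 on array 1 and -0.35 on array 2. Ratios were below 0 on each array for 11, above 0 on each for 0 and of opposite sign for 7. None passed 1.5-fold on both arrays. With both populations above background on both arrays, 16 members remained and their median was -0.41. Within the pyruvate dehydrogenase complex, the E1 subunits Pdha1 and Pdhb had mean ratios of 0.03 ± 0.30 and -0.22 ± 0.31. The second probe of Pdha1 was above 0 on both arrays, at 0.12 and 0.78 (mean 0.45), and that of Pdhb had a mean of -0.15. Dlat, the E2 core, was at 7.80 in GFPhigh and 8.72 in GFPlow on array 1, and at 8.13 and 8.66 on array 2. It was lower in GFPhigh on both arrays, with a ratio of -0.73 ± 0.27, or 1.66-fold, and its second probe had a mean of -0.44. Dld, the E3 subunit shared with 2-oxoglutarate dehydrogenase, had ratios of 0.22 and -0.92, and a second probe with a mean of -0.40.

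In the citrate cycle itself, 14 of 15 members were measured and their median was -0.41. Citrate synthase (Cs), the entry step, had a ratio of -0.44 ± 0.07, and its second probe a mean of -0.73. Isocitrate dehydrogenase 3, the NAD-dependent enzyme of the cycle, has 3 subunits. Idh3a was at 8.55 in GFPhigh and 9.00 in GFPlow on array 1, and at 8.26 and 9.26 on array 2. Idh3b was at 8.81 and 9.72 on array 1, and at 9.23 and 9.53 on array 2. Both were higher in GFPlow on each array, with ratios of -0.73 ± 0.39 and -0.60 ± 0.43, but the larger gap was on array 2 for Idh3a and on array 1 for Idh3b. The third subunit, Idh3g, had a ratio of -0.23 ± 0.05.

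The NADP-dependent mitochondrial form Idh2 had a ratio of -0.40 ± 0.01. Idh1, its cytosolic counterpart, had signal near background in all 4 channels. For 2-oxoglutarate dehydrogenase, the E2 subunit Dlst was at 9.67 in GFPhigh and 10.57 in GFPlow on array 1, and at 9.92 and 10.23 on array 2. Its ratio was -0.60 ± 0.42, or 1.52-fold higher in GFPlow, while the E1 subunit Ogdh had -0.03 ± 0.25. Second probes gave means of -0.37 for Dlst and -0.13 for Ogdh. The succinyl-CoA ligase subunits had ratios of -0.43 ± 0.02 (Sucla2), -0.36 ± 0.44 (Suclg1) and -0.28 ± 0.53 (Suclg2), and the second probe of Sucla2 gave a mean of 0.11. Fumarase (Fh1) had ratios of 0.03 and -0.94.

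Mitochondrial and cytosolic forms can be set apart by name for malate dehydrogenase. The mitochondrial Mdh2 had a ratio of -0.47 ± 0.35 and the cytosolic Mdh1 one of 0.22 ± 0.67, with opposite signs on the arrays and a mean of 0.17 from a second probe. The ratio of Mdh1 exceeded that of Mdh2 by 0.48 on array 1 and 0.92 on array 2. Aco1, the cytosolic aconitase that also binds iron-responsive RNA, had a ratio of -0.23 ± 0.02. The 12 measured mitochondrial forms of the cycle had a median of -0.43, and all 12 means lay below 0, with 9 of the 12 below 0 on each array.

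Gluconeogenesis, the reverse route from pyruvate to glucose, had 2 measured members of 4. Fbp1, the liver-type fructose 1,6-bisphosphatase, was above background in GFPhigh on array 1 and in GFPlow on array 2, both of them Cy3 channels, and is not counted as measured. Fbp2, the muscle type, had a ratio of -0.45 ± 0.27, and Pck2, the mitochondrial phosphoenolpyruvate carboxykinase, had ratios of -0.04 and -0.99.

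Genes of the same pathways outside the set did not share one direction. Of 18 further genes of glycolysis and of glucose and lactate transport, 7 were measured, with a median of 0.33: 1 was called higher in GFPhigh and 1 higher in GFPlow. The sign of that median was not settled: it was -0.40 with array 1 left out (9 measured) and -0.06 with median centring. All measured genes had medians of -0.145 and -0.49 under these settings. With median centring the list thus stayed above all genes, and with array 1 left out it fell below them. The monocarboxylate transporters, which carry lactate and pyruvate across the membrane, were called in opposite directions. Slc16a7 (MCT2) had ratios of 1.52 and 1.66, higher in GFPhigh. Slc16a1 (MCT1) had -2.44 and -2.30, higher in GFPlow, with GFPhigh above background on array 1 alone. The gap between them was 3.96 on array 1 and 3.97 on array 2, and ran from 3.12 to 5.63 over the alternatives. With median or spike-in centring Slc16a7 lost the call, while Slc16a1 kept it under each alternative that measured it.

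Of 17 further genes around pyruvate and the citrate cycle with a probe, 14 were measured, with a median of -0.16 and 1 call. Me1, the cytosolic malic enzyme, which is another source of NADPH, had ratios of -1.34 and -1.05, a mean of -1.19 ± 0.21. GFPhigh was above background for Me1 on array 1 alone. Without background correction the mean of Me1 was -0.90, with all its probes averaged it was -1.03, and the call was lost in both cases. Me2, its mitochondrial counterpart, had a ratio of -0.82 ± 0.47, again with GFPhigh above background on array 1 alone. The succinate dehydrogenase subunits had -0.36 ± 0.06 (Sdha), -0.06 ± 0.75 (Sdhb), -0.04 ± 0.54 (Sdhc) and -0.45 ± 0.21 (Sdhd). Sdhb and Sdhc had opposite signs on the arrays. Of 11 further genes of pentose phosphate metabolism, glycerol phosphate and glucose release, 6 were measured, with a median of -0.24 and no call. Prps1, which turns ribose 5-phosphate into the nucleotide precursor PRPP, had a ratio of -0.61 ± 0.39. H6pd, the pathway's dehydrogenase of the endoplasmic reticulum, had -0.39 ± 0.35.

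Many glycolytic genes are targets of the hypoxia response, so 10 other targets and components of it were read beside them. Of the 4 measured, Bnip3 and Vegfa had ratios of 0.92 ± 0.01 and 0.79 ± 0.01, Car9 had -0.47 ± 0.46, and Ndrg1, at -1.65 ± 0.16, was called higher in GFPlow. For Car9 and Ndrg1, GFPhigh was above background on array 1 alone. The median of the 4 was 0.16, but -0.14 with array 1 left out (7 measured) and -0.20 with median centring. Beside these, all measured genes had medians of -0.06, -0.145 and -0.49.

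Markers of dividing cells, surface mucous cells, enteroendocrine cells and the gland base had larger median ratios, in either direction, than any of the enzyme groups. Of 10 proliferation genes, 9 were measured, all had ratios below 0 on each array and 8 were called higher in GFPlow, with a median of -1.83. Mki67 had a ratio of -2.28 ± 0.20, and Top2a was not well above background in GFPhigh on either array. The 10 genes' summed intensity was 4119 in GFPhigh and 15220 in GFPlow on array 1, and 4291 and 16670 on array 2. All 4 surface mucous cell markers with a probe were called higher in GFPlow (median -2.77), with sums of 17650 and 26260 in GFPhigh and of 252500 and 156500 in GFPlow. Among them, Gkn1 was not well above background in GFPhigh on either array. Of 7 enteroendocrine markers, 5 were called higher in GFPlow (median -1.57 of 6 measured), with sums of 3009 and 3808 against 17960 and 16590. Tph1, 1 of those called, was likewise not well above background in GFPhigh on either array. All 8 markers of gland base and chief cells had ratios above 0 on each array and 5 were called higher in GFPhigh, with a median of 2.52. Their sums were 715400 and 1269000 in GFPhigh and 223200 and 112900 in GFPlow. Of 7 parietal cell markers, 3 were measured and 1 was called higher in GFPhigh, with sums of 5786 and 5806 in GFPhigh against 2701 and 2844 in GFPlow. Of 6 tuft cell markers, 3 were measured and 1 was called higher in GFPlow, with sums of 694.6 and 727.3 in GFPhigh and of 963.8 and 1102 in GFPlow. The 3 passed the filter through GFPlow, so their direction is no separate result. In GFPhigh, Avil and Alox5 were not well above background on either array, and 0 of the 6 markers were on array 2.

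Markers of cells from outside the epithelium were near background. Of 7 immune markers, 6 were not well above background in any channel, among them Ptprc and Cd68, and the summed intensity was 677.1 and 625.5 in GFPhigh and 694.1 and 606.5 in GFPlow. The same held for 6 of 8 fibroblast and muscle markers and for 4 of 6 markers of endothelium and blood. Their sums lay between 1153 and 1269, and between 601.1 and 687.4, over the 4 channels.

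The place of the pentose phosphate group below the others held better than the size of its ratios. The pentose phosphate median was below the medians of glycolysis and of the citrate cycle group under each of the 12 alternatives, and below the median of all genes by at least 0.67. The alternatives are not 12 independent checks. Spike-in centring subtracts the same constant from every ratio, so it could not change the order of the groups. The value table repeats the scanner software's signals. Where each array was centred on its median without loess, all measured genes had a median of -0.49, and with spike-in probes set to 0 after loess it was -0.81. Under those centrings the 8 members with means above 0 (Hk2, Pfkl, Pfkm, Aldoa, Ldha, Ldhb, Pdha1 and Mdh1) all had means below 0. Their direction is therefore relative to the other genes of the array.

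**Figure D5:**
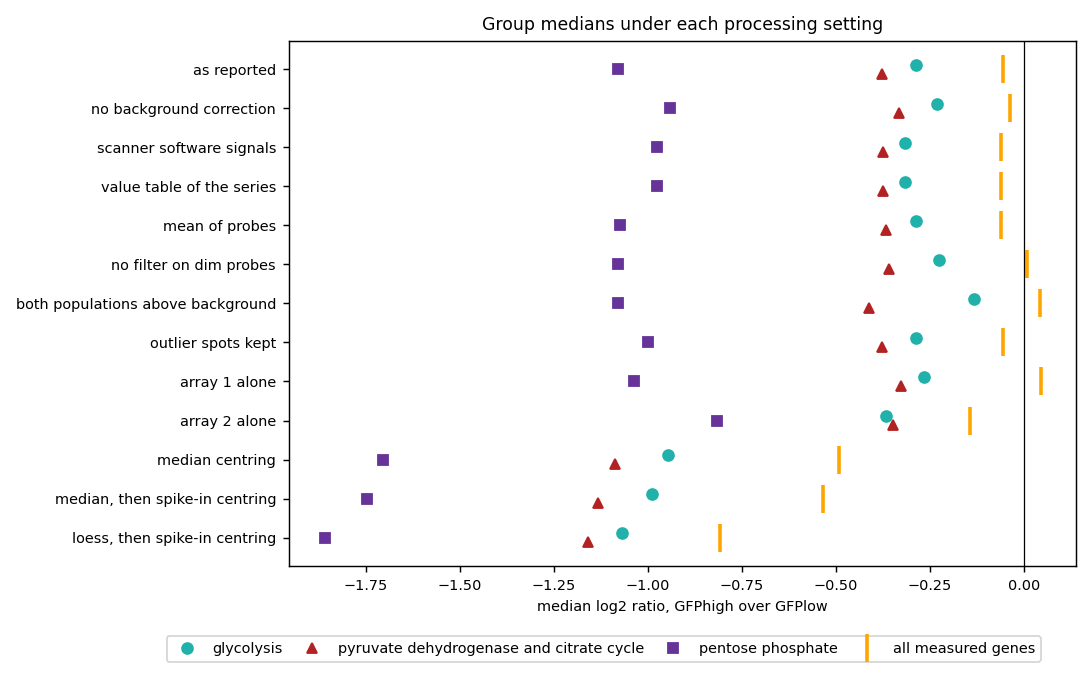
Median log2 ratio of GFPhigh over GFPlow (horizontal axis) of the measured members of 3 pathway groups and of all measured genes, under the processing as reported and under 12 alternatives (vertical axis). The pentose phosphate median is the lowest in each row, from -1.86 to -0.82, and all medians shift left with median or spike-in centring.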

How the data were processed

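Gene expression was measured on 2 Agilent arrays of GFPhigh and GFPlow RNA in a dye swap; 150 ng of total RNA was labelled after linear amplification, per the labels' protocols. The authors deposited scanner output: mean intensity per channel and median local background intensity, per the file headers, made by Feature Extraction 10.5.1.1 per the file headers and 9.5.3 per the submitters' processing notes. The deposited value table of log10 ratios was within 0.0050 log10 of the ratios in the scanner files.

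In R 4.3.3, limma 3.58.1 was used to correct intensities for background (normexp method, offset 50), which were then normalized by loess within arrays with control spots at weight 0, and turned to GFPhigh over GFPlow as log2 ratios. The deposited files hold no log2 values. Spots marked as outliers were left out, removing 115 of 41174 probes. Spots of a probe were averaged, and a gene was its measured probe of highest average signal. Levels are per channel after loess and Aquantile normalization. The offset pulls ratios of dim probes towards 0. Names are those in the files, and 4 genes of the further lists were found through an accession. The steps were tested on simulated data. As many genes were raised as lowered there, so the simulation could not test the zero point of the ratios.

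Members and gene lists were chosen with earlier results of these data known. Every member is named. Values in all 4 channels are given for called members and the 12 others of largest absolute mean ratio, and for a few more named for their step. Up to 4 genes of each further list are named. Of these lists, 1 gene is not reported here and was left out of its list's counts and median. Alternatives covered background, signals, centring, filter, probe rule, value table, threshold and each array alone; keeping outlier spots and spike-in centring after loess were added after seeing the data.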

Additional observations from a re-analysis of the deposited data

How the results depend on the processing

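Of 487 member values recomputed under the alternatives, 340 lay within 1 SD of the reported value and 147 moved further. Many of these values could not move that far. With the same probe, the value of 1 array always lies within 1 SD of the mean of 2. A change of filter that leaves the same probe leaves the value as it was. The count is therefore no measure of how stable the values are. Of the values that met the 2-fold call, 0 changed sign. Rpia alone met that call as processed here, so this says little about the other members. All 8 means above 0 were below 0 with median or spike-in centring. No paired analysis was possible because the arrays are 1 replicate of 1 pair of RNA samples. The number of members at least 2-fold higher in GFPhigh was 0, and ranged from 0 to 1 with an array left out. The number higher in GFPlow was 1. It was 2 with the mean of all probes (Pgd and Rpia) and 2 with the scanner software's signals or the value table (Aldoc and Rpia). With spike-in centring after median centring it was 2 (Tkt and Rpia). It was 6 at 1.5-fold and from 3 to 5 with an array left out, and the shares of all genes for these are given above. With spike-in centring after loess it was 20. That setting moves every gene towards GFPlow: 88.0% of all genes were then below 0 on each array, with a median of -0.81. The 20 are therefore no result about the members. Shares of all genes at 2-fold are not given for the other processing alternatives. With median centring it was Tkt in place of Rpia.

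The median of all measured members moved to -1.11 with median centring, -1.15 with spike-in centring after it and -1.21 with spike-in centring after loess. In the same order glycolysis moved to -0.95, -0.99 and -1.07, the pyruvate dehydrogenase and citrate cycle group to -1.09, -1.13 and -1.16, and pentose phosphate to -1.70, -1.75 and -1.86. Without background correction these 3 groups were at -0.23, -0.33 and -0.94. With no filter on dim probes, glycolysis was at -0.23 and the citrate cycle group at -0.36. With both populations above background they were at -0.13 and -0.41. With an array left out, glycolysis ranged from -0.37 to -0.27, the citrate cycle group from -0.35 to -0.33 and pentose phosphate from -1.04 to -0.82. The cause of these shifts was not tested.

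The mean ratio of 10 spike-in probes was 0.78 after loess, and 0.89 and -0.80 on the arrays after median centring, so the zero point of the ratios is uncertain. Signal over background limits Eno1, Idh1 and Fbp1, and GFPhigh on array 2 for 5 members.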
